A study of Mus musculus with 5 samples.

Results

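Genes of the Notch signalling pathway were followed in mouse embryonic cortical cells made to express the bHLH transcription factor Ptf1a, which directs inhibitory neuron fates in several regions of the nervous system and acinar fate in the pancreas. The 39 genes were chosen by symbol as receptors, ligands, glycosyltransferases, proteases, regulators and Hes, Hey and Nrarp targets, and all 39 were found among the 23234 gene rows of the authors' deposited table. Cortices of CD1 embryos received, by electroporation at E12.5, either a Ptf1a and GFP construct (3 samples) or a construct with GFP alone (2 samples), and both groups were harvested at E15.5. Each sample pooled 3 to 6 brains and 58000 to 106000 GFP-positive sorted cells, so both groups carry electroporation, GFP and sorting. The promoter that drives the construct is not given in the sources used here. For each gene the table gives 1 level per group in FPKM (fragments scaled to transcript length and library total), so there is no value per sample, no SD and no depth per sample. The only replicate error is the one inside the authors' own test.

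Notch signalling passes between touching cells. A Delta or Jagged ligand on one cell binds a Notch receptor on its neighbour, the receptor is cut by an ADAM protease and then by gamma-secretase, and the freed intracellular part enters the nucleus, where with Mastermind proteins it switches on Hes, Hey and Nrarp genes. In the embryonic cortex this keeps radial glia, the neural stem cells, from becoming neurons. Newborn neurons and intermediate progenitors, which carry proneural factors, present Delta ligands to them.

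The words rose and fell, used of a gene, mean that the authors' deposited q was under 0.05, with the Ptf1a value set against the control value. Of the 39 genes 11 rose, 6 fell, 15 were tested without a call and 7 carried no test. Among all 11876 tested genes, 18.7% rose and 19.1% fell, so the 11 risen of 32 tested members (34.4%) stood above that background and the 6 fallen (18.8%) stood near it. Counts differed by role, a difference that was not itself tested. Both tested receptors, the glycosyltransferase Lfng and 5 of 6 tested genes of the Hes, Hey and Nrarp group rose. No member ligand rose, and 3 of 5 tested typical and atypical ligands fell. Those 3 are Dll3, a divergent Delta family member, and both atypical ligands, Dner and Dlk2, and Dll1 and Jag1 were not called. None of the 4 member proteases was called. The levels of all 39 genes are drawn by role in the plot of group levels.

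**Figure D1:**
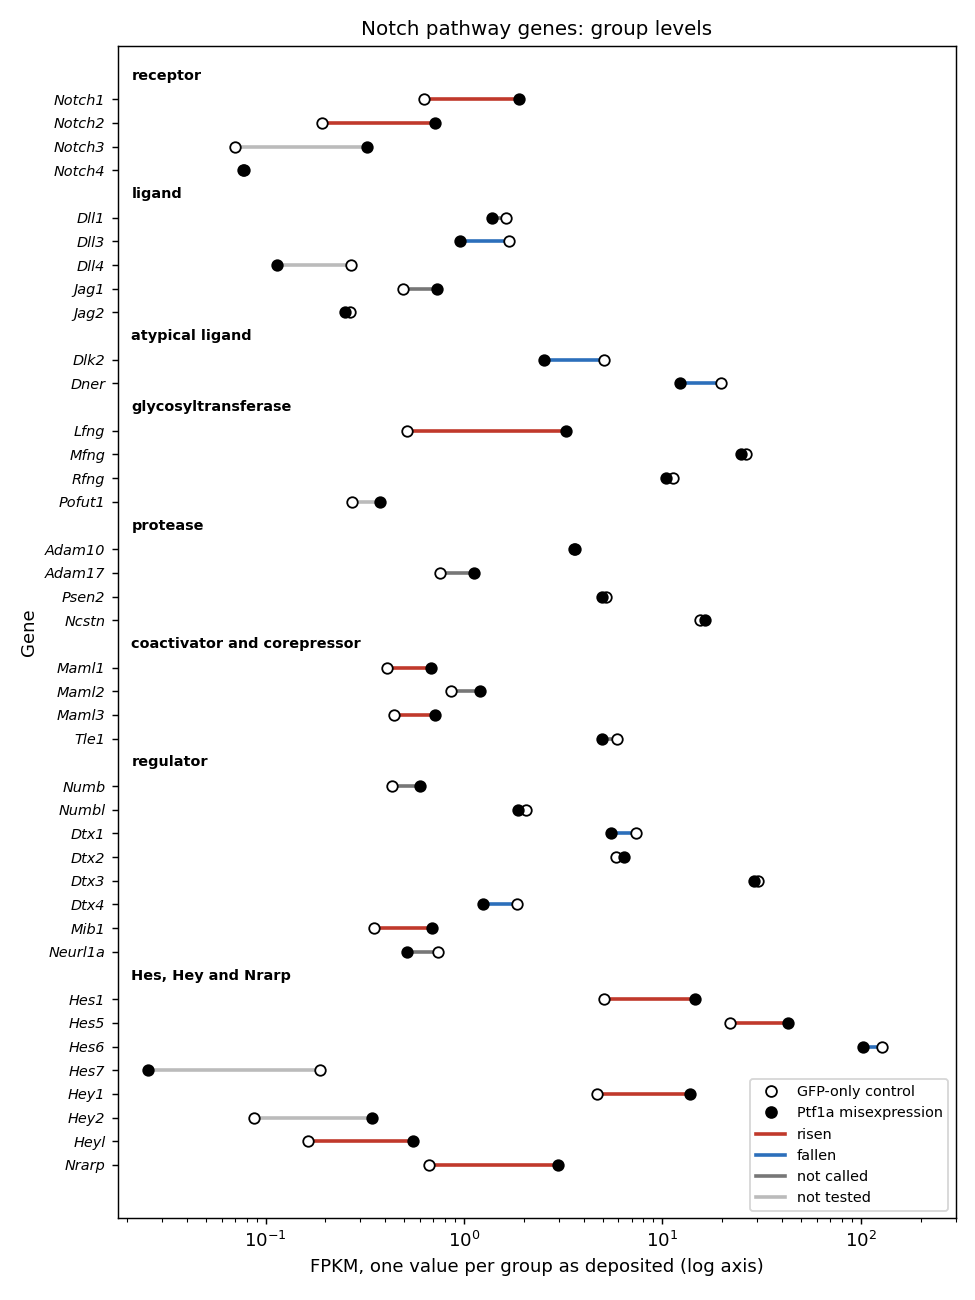
Levels of the 39 Notch pathway genes, grouped by role, in FPKM on a log axis, with open circles for the GFP-only value and filled circles for the Ptf1a value (1 deposited value per group, no error). Line colour gives the authors' call at q under 0.05. Long red lines lie among the receptors, Lfng and the Hes, Hey and Nrarp genes (Lfng from 0.518 to 3.25 FPKM). Protease points nearly coincide except those of Adam17 (0.756 and 1.12 FPKM), which was not called.

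The 5 typical ligands were weakly expressed, and none rose. Dll1, the main Delta ligand of cortical neurogenesis, stood at 1.62 FPKM in the GFP-only control and 1.38 FPKM with Ptf1a and was not called. Its deposited log2 fold was -0.23 (q = 0.448 in the authors' deposited table). Dll3, a divergent Delta family member that acts inside the cell rather than as an activating ligand, fell from 1.68 to 0.958 FPKM (deposited log2 fold -0.81, q = 0.0245 in the authors' deposited table). Jag1, a Jagged ligand, stood at 0.492 and 0.726 FPKM, and with q = 0.0784 in the authors' deposited table it was the uncalled member closest to the threshold. Jag2 (0.266 and 0.251 FPKM) and Dll4, the Delta ligand best known from blood vessels (0.270 and 0.114 FPKM), had no test. The 5 typical ligands together thus gave 1 fallen gene, 2 uncalled and 2 untested.

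Both atypical ligands, membrane proteins with EGF repeats that lack the domain by which Delta and Jagged activate Notch, fell. Dner, expressed in postmitotic neurons, was the most abundant ligand of the set and fell from 19.7 to 12.3 FPKM, a deposited log2 fold of -0.68 (q = 0.000329 in the authors' deposited table). Dlk2 fell from 5.07 to 2.52 FPKM (deposited log2 fold -1.01, q = 0.0111 in the authors' deposited table). The deposited locus of Dlk2 (chromosome 17, 46434370 to 46464972, mm9) is shared with Abcc10.

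Both tested receptors rose. Notch1 (chromosome 2, 26313422 to 26359342, mm9), the main receptor of cortical radial glia, rose from 0.626 to 1.88 FPKM, 3.00-fold, with a deposited log2 fold of 1.59 (q = 0.000329 in the authors' deposited table). Notch2 (chromosome 3, 97817461 to 97954290, mm9), also a radial glial receptor, rose from 0.192 to 0.712 FPKM, 3.71-fold, with a deposited log2 fold of 1.89 and the same q in the authors' deposited table. Notch3, a receptor of vessel-wall cells and progenitors, stood at 0.0703 and 0.326 FPKM without a test, and Notch4, an endothelial receptor, at 0.0773 and 0.0768 FPKM, also without one. All 4 receptors stayed under 2 FPKM in both groups, and Notch4 was the only one not higher with Ptf1a.

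Fringe glycosyltransferases lengthen sugars on the EGF repeats of Notch and thereby shift its response between Delta and Jagged ligands. Lfng (lunatic fringe, chromosome 5, 141083295 to 141091499, mm9), typical of radial glia, went from 0.518 to 3.25 FPKM. That rise of 6.28-fold was the largest among tested members, with a deposited log2 fold of 2.65 (q = 0.000329 in the authors' deposited table). Its relatives were more abundant and were not called. Mfng (manic fringe) stood at 26.3 and 24.9 FPKM and Rfng (radical fringe) at 11.3 and 10.4 FPKM. In the control, then, Lfng was the lowest of the 3 fringe genes by FPKM, and it remained so with Ptf1a. Pofut1, which adds the O-fucose that fringes extend, stood at 0.273 and 0.377 FPKM with no test.

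None of the 4 member genes of the cutting machinery was called. The shedding proteases Adam10 (3.57 and 3.60 FPKM) and Adam17 (0.756 and 1.12 FPKM) and the gamma-secretase subunits Psen2 (5.18 and 4.94 FPKM) and Ncstn (nicastrin, 15.47 and 16.38 FPKM) had deposited q values of 0.959, 0.320, 0.810 and 0.774 in the authors' deposited table. A rough view of precision comes from an implied standard error, which is the deposited log2 fold divided by the authors' test statistic. The authors' calls do not follow it closely, since Maml1 was called with a test statistic of 1.25. The implied standard error was 0.35 log2 units for Adam10, 0.99 for Adam17, 0.40 for Psen2 and 0.40 for Ncstn. By this measure the Adam17 comparison was the least precise of the 4. Ncstn shares its deposited locus with Copa and Adam17 shares its own with Iah1.

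In the nucleus, Mastermind proteins join the Notch intracellular domain and recruit acetyltransferases. Maml1 rose from 0.410 to 0.685 FPKM (q = 0.0259 in the authors' deposited table) and Maml3 from 0.442 to 0.710 FPKM (q = 0.0287 in the authors' deposited table), which places them just inside the threshold. Maml2, at 0.859 and 1.20 FPKM, lay just outside it with q = 0.0911 in the authors' deposited table. The 3 deposited log2 folds were close to each other, at 0.74, 0.68 and 0.49 for Maml1, Maml3 and Maml2 in the authors' deposited table, with implied standard errors of 0.59, 0.55 and 0.55. Tle1, a Groucho corepressor that Hes proteins recruit, was not called at 5.92 and 4.96 FPKM.

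The Hes, Hey and Nrarp genes gave 5 of the 11 rises. Hes1 (chromosome 16, 30065443 to 30067882, mm9), a repressor of proneural genes in radial glia, rose from 5.09 to 14.5 FPKM, a deposited log2 fold of 1.51 with an implied standard error of 0.35 and q = 0.000329 in the authors' deposited table. Hes5 (chromosome 4, 154335032 to 154336480, mm9), a standard Notch readout in the cortex, rose from 22.0 to 43.1 FPKM (deposited log2 fold 0.97, implied standard error 0.27, q = 0.000329 in the authors' deposited table). Hey1 (chromosome 3, 8663359 to 8667038, mm9), a related repressor, rose from 4.67 to 13.8 FPKM (deposited log2 fold 1.56, implied standard error 0.33, q = 0.000329 in the authors' deposited table). Hes1 and Hey1 thus started from like levels and rose by like amounts, while Hes5 started higher and rose by a smaller factor.

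Nrarp (chromosome 2, 25036278 to 25038852, mm9), a small target that feeds back to limit Notch activity, rose from 0.668 to 2.98 FPKM, 4.46-fold, with a deposited log2 fold of 2.16 (q = 0.000329 in the authors' deposited table). Heyl rose from 0.163 to 0.552 FPKM (q = 0.00137 in the authors' deposited table), but its implied standard error of 0.85 log2 units was the widest among the risen members. Hey2, at 0.0875 and 0.344 FPKM, and Hes7, the oscillator of the segmenting embryo, at 0.187 and 0.0254 FPKM, had no test.

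Hes6 differs from its relatives in role: it promotes neuronal differentiation, opposes Hes1 and is induced by proneural factors rather than by Notch. It was the most abundant of the 39 genes and fell from 127 to 103 FPKM, a deposited log2 fold of -0.31 (q = 0.0175 in the authors' deposited table). At 0.809 of its control level, this was the smallest change among the called members. Hes6 was thus the only called gene of the Hes, Hey and Nrarp group to fall.

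**Figure D2:**
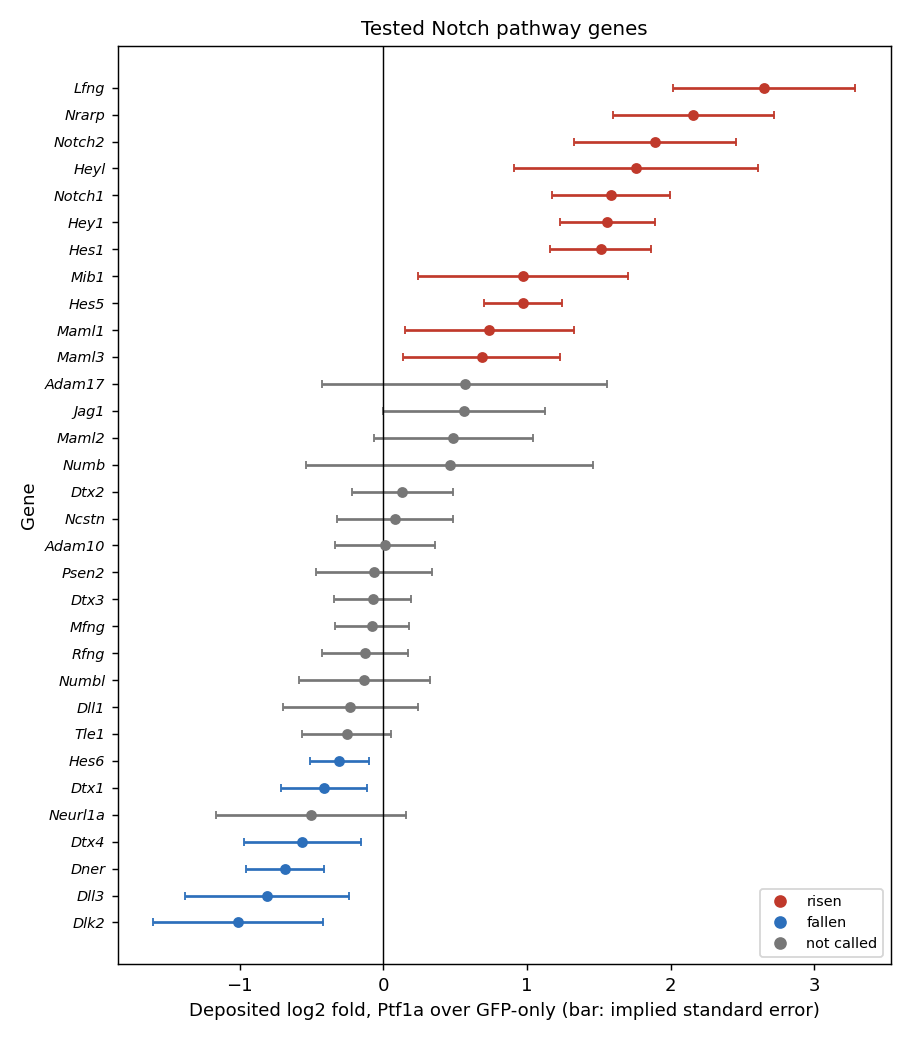
Deposited log2 fold of Ptf1a over GFP-only for the 32 tested members, ordered by size, with bars of 1 implied standard error (deposited log2 fold over test statistic). Lfng (2.65) and Nrarp (2.16) lead the risen genes, the fallen genes end at Dlk2 (-1.01), and among called genes the bars of Hes6, Dtx1, Maml1 and Maml3 come closest to 0.

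Promoter sequence is shown for the risen members Hes5, Lfng, Nrarp and Notch1 and for the fallen Delta family member Dll3. The reason is that the risen members include textbook targets of the Notch nuclear complex. Sequences are the 250 bases before the annotated RefSeq start, 5′ to 3′ on the gene's strand, on build GRCm38.p6 of the reference strain, not the mm9 build of the expression table. The windows are Hes5 at chr4:154960673-154960922 (plus strand), Lfng at chr5:140607091-140607340 (plus strand), Nrarp at chr2:25180508-25180757 (plus strand), Notch1 at chr2:26503823-26504072 (minus strand) and Dll3 at chr7:28301786-28302035 (minus strand). Capitals mark matches on either strand to 4 motifs: GTGGGAA, a core bound by the Notch nuclear complex, the E-box CACGTG, the related form CACGCG and the N-box CACGAG, of the kind that Hes and Hey repressors bind.
Hes5: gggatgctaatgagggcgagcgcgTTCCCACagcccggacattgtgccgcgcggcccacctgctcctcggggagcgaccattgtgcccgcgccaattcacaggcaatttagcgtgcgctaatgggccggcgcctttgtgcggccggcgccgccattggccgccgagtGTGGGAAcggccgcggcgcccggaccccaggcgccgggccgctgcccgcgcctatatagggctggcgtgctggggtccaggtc
Lfng: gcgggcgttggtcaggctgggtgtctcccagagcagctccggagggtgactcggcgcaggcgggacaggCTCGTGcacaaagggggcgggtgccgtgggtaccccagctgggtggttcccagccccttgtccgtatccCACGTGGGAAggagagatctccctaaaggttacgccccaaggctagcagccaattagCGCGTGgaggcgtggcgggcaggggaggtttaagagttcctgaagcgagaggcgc
Nrarp: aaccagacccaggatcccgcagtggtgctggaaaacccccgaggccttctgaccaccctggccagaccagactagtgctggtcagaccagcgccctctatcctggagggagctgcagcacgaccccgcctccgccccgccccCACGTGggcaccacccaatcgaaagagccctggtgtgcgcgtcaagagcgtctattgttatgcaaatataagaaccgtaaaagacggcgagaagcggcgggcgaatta
Notch1: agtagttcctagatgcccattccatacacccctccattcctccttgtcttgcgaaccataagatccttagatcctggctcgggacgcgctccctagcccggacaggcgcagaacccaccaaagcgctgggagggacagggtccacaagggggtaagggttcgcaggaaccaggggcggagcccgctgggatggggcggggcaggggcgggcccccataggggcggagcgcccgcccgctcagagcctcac
Dll3: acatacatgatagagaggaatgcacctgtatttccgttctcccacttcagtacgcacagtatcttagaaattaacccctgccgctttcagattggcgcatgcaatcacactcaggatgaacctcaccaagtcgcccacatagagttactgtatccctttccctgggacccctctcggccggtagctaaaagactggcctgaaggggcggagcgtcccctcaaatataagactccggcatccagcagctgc

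The Hes5 window holds GTGGGAA at 2 places, in reverse orientation (TTCCCAC) beginning 226 bases before the start and in forward orientation beginning 83 bases before it. In the Lfng window the core begins 109 bases before the start and overlaps a CACGTG that begins 112 bases before it, and CTCGTG and CGCGTG, the reverse forms of CACGAG and CACGCG, are also present. Nrarp holds CACGTG 108 bases before the start. Notch1 and Dll3 hold none of the 4 motifs in these stretches.

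RefSeq promoters of 300 bases (250 before to 50 after the start) were matched for 32 of the 39 members, in 39 windows. Hes1, Hey1, Heyl, Mib1, Mfng, Dtx3 and Dtx4 had no entry and were not searched. GTGGGAA was found in 5 of these 32 genes, against 7.25% of 27025 genes with a promoter in the table (6.38% of 32851 windows). These were the risen Lfng and Hes5 (2 of 7 risen genes with a promoter), the uncalled Psen2, and the untested Hes7 and Hey2, and none of the 5 fallen genes with a promoter held it. CACGTG was found in 4 members, CACGCG in 11 and CACGAG in 6, against 8.09%, 10.5% and 7.47% of all genes. A match describes letters in a window and does not show binding, and longer-range elements were not searched.

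Of 8 regulators of ligand and receptor turnover, all tested, 1 rose and 2 fell. Among all tested genes 18.7% rose and 19.1% fell, and whether so small a group departed from that background was not tested. Mib1, the ubiquitin ligase that lets Delta and Jagged pull on Notch by endocytosis, rose from 0.351 to 0.691 FPKM (q = 0.0220 in the authors' deposited table, implied standard error 0.73), while Neurl1a, of another ligase family acting on ligands, was not called at 0.735 and 0.518 FPKM. Numb (0.435 and 0.599 FPKM) and Numbl (2.04 and 1.86 FPKM), endocytic adaptors that oppose Notch, were not called. Of the 4 Deltex genes, Dtx1 fell from 7.35 to 5.52 FPKM (q = 0.0194 in the authors' deposited table) and Dtx4 from 1.84 to 1.24 FPKM (q = 0.0140 in the authors' deposited table). Dtx2 (5.86 and 6.43 FPKM) and Dtx3 (30.4 and 28.8 FPKM) were not called. Dtx1, known as a Notch target in lymphoid cells, thus fell where Hes1, Hes5 and Hey1 rose.

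Abundance and direction were linked in the table as a whole, and the members were read against that. Among tested genes with a mean of the 2 group values under 1 FPKM, 29.3% rose and 5.32% fell, and of 9 such members 5 rose and 0 fell (Notch2, Heyl, Maml1, Maml3 and Mib1). Between 1 and 10 FPKM, 22.0% of genes rose and 11.4% fell, and of 16 members 5 rose (Notch1, Lfng, Nrarp, Hes1 and Hey1) and 4 fell (Dll3, Dlk2, Dtx1 and Dtx4). At 10 FPKM or more, 9.93% rose and 34.5% fell, and of 7 members Hes5 rose and Dner and Hes6 fell. The median log2 difference, on the log2(FPKM + 0.1) scale, was 0.11 over the 32 tested members and -0.0088 over all tested genes, and it was -0.070 over the members with at least 1 FPKM in the higher group. Among genes with at least that level 17.9% rose and 21.1% fell, against 6 and 6 of 24 members, and with at least 5 FPKM 13.4% rose and 29.5% fell, against 3 and 4 of 14 members. How much abundance contributed was not tested.

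**Figure D3:**
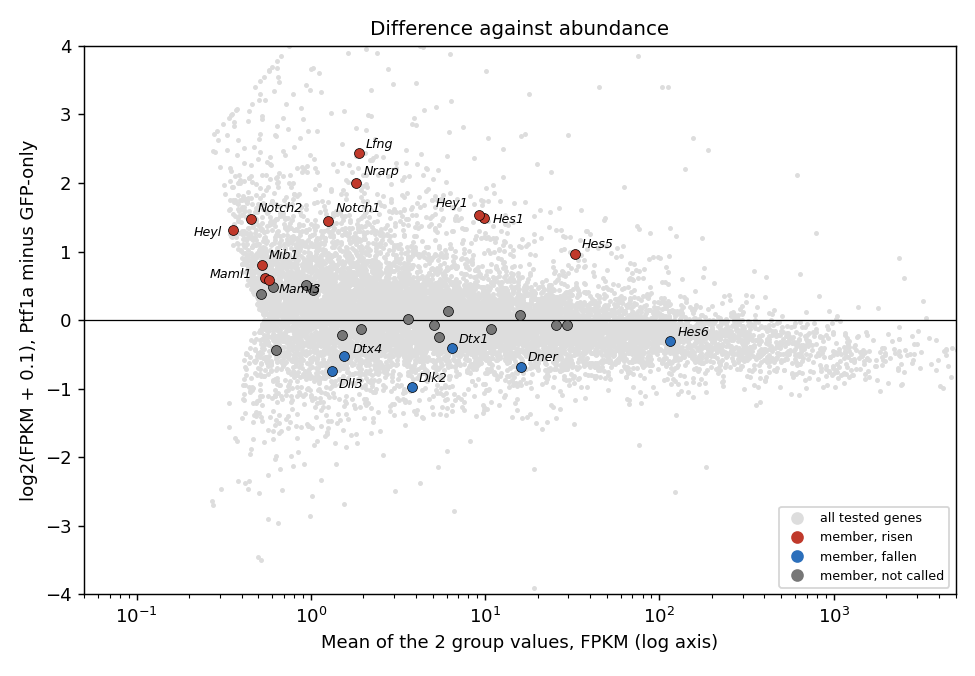
Difference on the log2(FPKM + 0.1) scale (Ptf1a minus GFP-only) against the mean of the 2 group values in FPKM (log axis), for all tested genes in grey and the 32 tested members in colour by call, with called members named. Lfng (2.44) and Nrarp (2.00) stand highest, Hes6 (-0.31) is the most abundant member, and 78 tested genes fall outside the axes.

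The size of the calls was uneven. Notch1, Notch2, Lfng, Hes1, Hey1 and Nrarp passed a q under 0.01, a 2-fold minimum on the log2(FPKM + 0.1) scale and the two-sided normal p that the authors' test statistic would give (Benjamini-Hochberg over tested genes), where 12.9%, 6.67% and 3.3% of tested genes rose. Hes5 passed the first and the last of these and lay just under the fold minimum, with a log2 difference of 0.97. None of the 6 fallen members passed the fold minimum or the normal p (1.87% and 2.8% of tested genes fell by these), with Dlk2 at -0.98 just short of the minimum, and Dner alone passed a q under 0.01 (12.9% of genes). The falls of Dll3, Dlk2, Hes6, Dtx1 and Dtx4 therefore rest on the authors' q at 0.05.

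Other Notch pathway genes were taken from a list of 54, of which 45 were tested. There 16 rose (35.6%, against 18.7% of all tested genes) and 3 fell (6.67%, against 19.1%), with a median log2 difference of 0.23. Among the risen genes were Dlk1, an atypical ligand and paralog of Dlk2 (0.319 to 0.772 FPKM), the Groucho relative Tle6 (0.888 to 1.86 FPKM) and Cntn6, a contactin that binds Notch (0.244 to 0.575 FPKM). The fallen genes were Rab11a, a recycling endosome GTPase (217 to 161 FPKM), the histone deacetylase Hdac2 (82.9 to 62.9 FPKM) and the gamma-secretase subunit Psenen (358 to 295 FPKM). Of the gamma-secretase genes in both sets Psenen was the one called, with a deposited log2 fold of -0.28 in the authors' deposited table.

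Proneural factors are basic helix-loop-helix proteins that induce Delta ligands and are repressed by Hes proteins. The list used here also held later factors, among them Neurod6, which is counted below as a projection neuron marker. Called genes of the list went both ways. The early factors Neurog2 (4.04 to 13.3 FPKM), Neurog1 (0.205 to 2.39 FPKM) and Neurog3 (0.311 to 0.813 FPKM) rose. Neurog3 lay just inside the threshold (q = 0.0492 in the authors' deposited table), with an implied standard error of 1.01. The later factors Neurod1 (50.6 to 35.9 FPKM), Neurod2 (46.8 to 37.3 FPKM) and Neurod6 (1717 to 1190 FPKM) fell. Atoh1 and Neurod4 were under 0.4 FPKM in both groups without a test, and Atoh7 was listed at 0 in both. Neurogenins and the Hes1, Hes5 and Hey1 genes were thus both higher with Ptf1a, while Dll1 was not called.

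Markers of cell types were compared in the same table, since FPKM of a sorted population mixes cell makeup and expression per cell. Fewer cells of a type and less RNA per cell cannot be told apart here. Beside the marker counts, here and for vessels, 18.7% of all tested genes rose and 19.1% fell. At a mean of 1 to 10 FPKM 22.0% rose and 11.4% fell, and at 10 FPKM or more 9.93% rose and 34.5% fell. Whether a marker list departed from these shares was not tested. Of 8 radial glia markers 7 rose and 0 fell, and their summed level went from 1777 to 3405 FPKM, led by Fabp7 (1652 to 3095 FPKM), Vim (107 to 246 FPKM) and Pax6 (3.73 to 21.5 FPKM). Of 10 cell cycle markers 9 rose and 0 fell (sum 305 to 382 FPKM), among them Ccnb1 and Cdk1 but not Pcna, and of 5 intermediate progenitor markers Btg2, Eomes and Insm1 rose, while the abundant Gadd45g and Elavl4 were not called (sum 128 to 163 FPKM). All 8 projection neuron markers fell (sum 1837 to 1276 FPKM), led in abundance by Neurod6, Map2 and Dcx. All 8 were detected in both groups, in samples labelled as pyramidal cells. The radial glia, cell cycle and projection neuron sums are mostly a single gene each, so they do not measure a shift of the whole list. These genes are Fabp7, the uncalled Pcna (230 and 223 FPKM) and Neurod6 (1717 and 1190 FPKM). None of the radial glia markers was at 0 in either group. The shifts of these markers moved with the rises of Notch1, Notch2, Lfng, Hes1, Hes5 and Hey1 and with the falls of Dner and Hes6. The part of the marker shifts in those results was not tested.

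Several members are also expressed in vessels. Of 12 endothelial markers 5 were tested, 2 rose (Esam and Ramp2) and none fell, with a sum of 11.5 FPKM in the control and 14.7 FPKM with Ptf1a, none at 0, and Egfl7, Cldn5 and Ramp2 as the most abundant. The 7 untested markers, Pecam1, Cdh5, Kdr, Flt1, Tek, Tie1 and Eng, reached at most 0.248 FPKM in either group (Eng with Ptf1a, against 0.0259 FPKM in the control). Of 7 mural cell markers 4 were tested, Pdgfrb (0.0286 to 1.20 FPKM) and Rgs5 (0.623 to 1.55 FPKM) rose and Kcnj8 fell, Vtn was not called and Anpep was listed at 0 in both groups (sum 4.74 to 6.52 FPKM). The part of endothelial and mural cells was not tested for any member. That holds for Notch3, Heyl, Hey2, Dll4 and Notch4, all under 1 FPKM in both groups, and also for the risen Notch1, Hes1, Hey1 and Nrarp. Of 6 microglial markers 4 were tested and 1 fell (Tyrobp, with C1qb and Aif1 not called, sum 14.6 to 9.24 FPKM). Red blood cell markers gave 2 fallen of the 4 found (Hbb-b2 and Hbb-y, with Hba-a2 not called, sum 141 to 60.2 FPKM). Esam, Kcnj8, Eomes, Insm1 and the untested endothelial markers were chosen for naming after their values were seen. Ptf1a itself went from 0.210 to 38.9 FPKM, which matches the group labels.

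**Figure D4:**
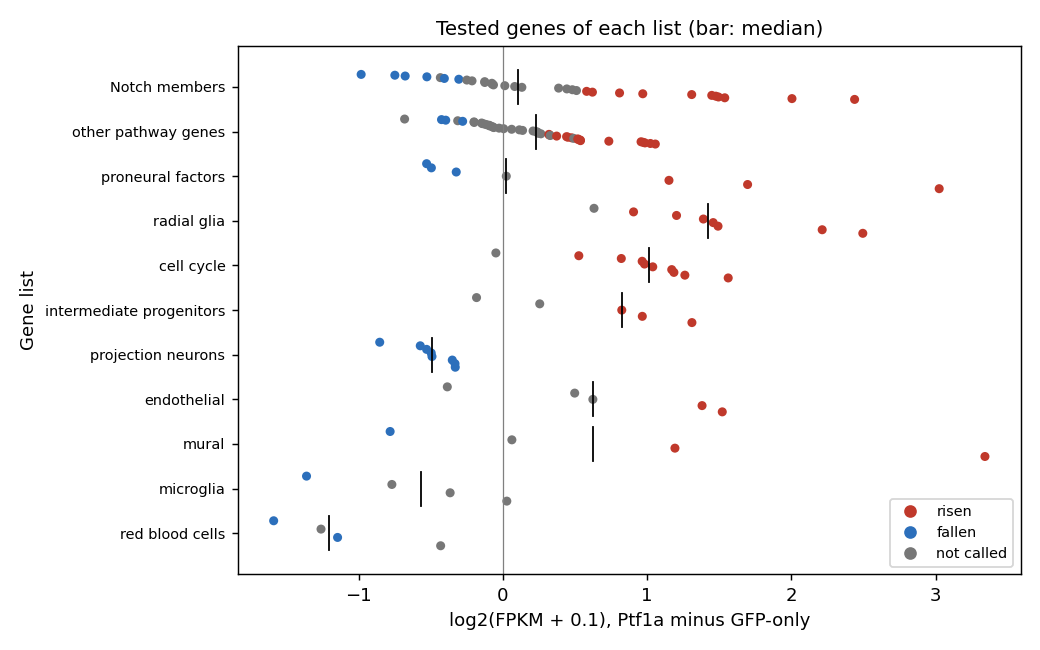
Differences on the log2(FPKM + 0.1) scale (Ptf1a minus GFP-only) for tested genes of the Notch member set, other pathway genes, proneural factors and cell type marker lists, each point 1 gene coloured by call and each black bar the list's median. Notch members spread to both sides of 0 (median 0.11), while radial glia markers lie to the right (median 1.42) and projection neuron markers to the left (median -0.49).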

How the data were processed

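RNA of GFP-positive sorted cortical cells was amplified from 2.1 to 7.8 ng of total RNA and read from both ends at 50 bp, per the labels' protocols. The submitters' processing notes name Cuffdiff, Cufflinks 2.1.1, TopHat2 2.0.8 and CASAVA 1.8.2, and the build mm9. The Cuffdiff version, annotation and parameters are not given in the sources used here. The file holds 1 FPKM value per gene and group, into which the authors had combined the samples. They deposited a log2 fold change, a signed test statistic (a score), a p-value and a q-value for each gene, per the file headers. The heading PIG was read as the Ptf1a group, since GFP was the other heading and there are 2 groups. Amplification from little RNA adds variation to weak genes, and precision is known only through the authors' test.

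Calls used the deposited q under 0.05, which matched the authors' own mark with 0 exceptions. The smallest q, 0.000329, was held by 1803 genes, 8 of them members, so it does not rank them. Differences were computed as log2(FPKM + 0.1), which understates changes of weak genes. The implied standard error is the deposited log2 fold over the test statistic. The test statistic was not numeric for 45 tested genes with a group at 0, none a member. The 39 members, the gene lists and the alternatives were chosen with earlier results of these data known. All members are named by role, as are up to 4 called genes per direction of the other pathway genes, the 3 most abundant of each marker list and the proneural factors. Some genes of these lists are not reported here. List genes absent under their symbol were matched by RefSeq synonym (Eogt and Map2). Locus starts are printed with 1 added to the deposited number, because reading them as 0-based gave 5247 of 20792 loci the length of an annotated gene or transcript, and reading them as 1-based gave 698. Of the members 7 share a deposited locus with another gene. The normal p calculation was run on simulated data drawn with normal noise. Such data cannot show that the authors' test statistic follows a normal distribution. Python 3.11.15, pandas 2.3.3, scipy 1.17.1 and matplotlib 3.10.9 were used.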

Additional observations from a re-analysis of the deposited data

How the results depend on the processing

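The 11 risen and 6 fallen members were recounted under other settings, with the share of all tested genes beside them. With at least 1 FPKM in the higher group 6 rose (17.9%) and 6 fell (21.1%), and with at least 5 FPKM 3 rose (13.4%) and 4 fell (29.5%), so 5 of the risen genes lay under 1 FPKM in both groups. At a q under 0.01, 8 rose (12.9%) and 1 fell (12.9%). With a 2-fold minimum on the log2(FPKM + 0.1) scale 7 rose (6.67%) and 0 fell (1.87%), although Dlk2 (-0.98 on that scale) had a log2 fold of -1.01 without a pseudocount in the authors' deposited table. By the normal p 7 rose (3.3%) and 0 fell (2.8%). The cause of the lower counts at the normal p was not tested. Centring on the median of all tested genes (-0.0088) left 11 and 6. That recount could hardly differ, since the median is small and centring leaves q unchanged. The members' median log2 difference of 0.11 was 0.096 with a pseudocount of 1, and turned to -0.070 with at least 1 FPKM and -0.076 with at least 5 FPKM, where fewer members enter. A pseudocount cannot turn the direction of a gene, and centring turned none among the 32 tested members. Calls were lost for 8 members at a q under 0.01, 10 with the 2-fold minimum and 10 by the normal p, Heyl among the last. No paired analysis was possible because the deposited table merges the samples of each group, and for the same reason leaving out single samples was not run.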

Other observations

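Genes that touch chromatin at Notch targets, outside the 39 members, differed in direction. The acetyltransferases Crebbp and Ep300, which Mastermind recruits, rose from 3.23 to 4.68 FPKM and from 0.529 to 0.803 FPKM, and the corepressor Ncor1 from 5.93 to 8.14 FPKM, while Hdac2 fell. The Groucho relatives Tle2 (0.782 to 1.37 FPKM) and Tle4 (1.98 to 2.73 FPKM) rose beside Tle6, whereas Tle3 (2.81 and 3.31 FPKM) was not called. Crebbp, Ep300, Ncor1, Tle2, Tle3 and Tle4 were chosen after their values were seen. The paralogs Dlk1 and Dlk2 were called in opposite directions. In the control Dlk2 was the higher by FPKM (5.07 against 0.319 FPKM), and it remained so with Ptf1a (2.52 against 0.772 FPKM).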
